A study of Bos taurus with 18 samples.

Results

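CDKL1 (gene ID 523900, protein coding) is a gene of cattle chromosome 10, and its CpG methylation was measured in sperm of 18 adult Holstein bulls by whole-genome bisulfite sequencing. The gene spans 43276847 to 43329674 on chromosome 10 of the UMD 3.1 genome in the gene list of the study, and all listed CpG positions inside it and within 2000 bp of either end were taken. This gave 985 positions listed in at least 1 bull, of 40640718 such positions in the genome. Each strand of a CpG is listed as its own position, so the 985 positions belong to at least 532 CpG dinucleotides. Of these positions, 946 lay between the gene's ends, 16 in the flank at its lower-coordinate end and 23 in the flank at its higher-coordinate end. The strand of the gene, its exons and its promoter in UMD 3.1 were not given in the sources used here, so its ends are named by coordinate. In the RefSeq annotation of the later assembly ARS-UCD2.0, CDKL1 stands between DMAC2L, which it overlaps, and MAP4K5.

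The labels call bulls high or low for a trait and give no treatment. For gestation length, sire calving ease, body depth and cow conception rate, the study states that high and low refer to predicted transmitting ability, a breeding value. For gestation length (GL), H03, H09, L03 and L05 were high and H02, H05, L01 and L07 were low. For sire calving ease (SCE), H03, H07 and L02 were high and H01, H06 and L09 were low. For body depth (BDE), H02, L03 and L08 were high and H05, H09 and L02 were low. For cow conception rate (CCR), H08, H09 and L06 were high and H06, L08 and L09 were low. For sire conception rate (SCR), H01, H02 and H03 were high and L01, L02 and L03 were low. H04 and L04 carry no group. Bulls are shared between comparisons (H09 was high for GL and CCR and low for BDE), so the comparisons are not independent of each other. The letters H and L are part of the bulls' names. They match the high and low groups of SCR and do not give the groups of the other traits. The label sperm was not checked against marker genes, because no gene annotation of the files' genome was used here.

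CDKL1 encodes cyclin-dependent kinase-like 1, a serine/threonine protein kinase related to the cyclin-dependent kinases that drive the cell cycle and to the MAP kinases. Kinases of the CDKL family are known for a role at cilia, and the sperm tail is built on the same axonemal plan as a motile cilium. In mammalian sperm most CpG sites of the genome, gene bodies included, are methylated, whereas CpG-rich stretches at gene starts are commonly unmethylated.

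Bulls differed in how much of CDKL1 they list, because the files hold only positions with at least 10 reads. The number of listed positions ranged from 49 in H01 over a median of 301.5 to 650 in H08, which is 4.97% to 66.0% of the 985 positions. No position was listed in all 18 bulls. The largest number was 16 bulls, reached by 3 positions, the median was 5 bulls, 56 positions were listed in at least 12 bulls and 95 in 1 bull only. Coverage is listed for 6 bulls, whose mean over CDKL1 lay between 11.04 and 12.5 reads. For the other 12 bulls only percents are listed. Their depth is at least 10 reads and was not inferred from the percents, some of which are no multiple of 10% and so cannot come from exactly 10 reads. Over the whole genome the bulls list between 2858992 and 22048556 positions.

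CDKL1 was almost completely methylated in sperm, apart from 1 unmethylated stretch at its higher-coordinate end. Of the 5617 values (1 position in 1 bull), 82.1% were at least 90% and 54.0% were exactly 100%, and 4.22% were at most 10%. Averaged over the bulls that list it, 825 positions (83.8%) had a methylation level of at least 90%, 108 lay between 10% and 90%, and 52 (5.28%) were at most 10%. The mean over all listed positions of a bull ranged from 81.3% in H09 over a median of 90.2% to 94.6% in L03. Each of the 18 bulls had a higher mean in CDKL1 than over its whole genome, where the means ran from 76.8% to 85.0%.

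**Figure D1:**
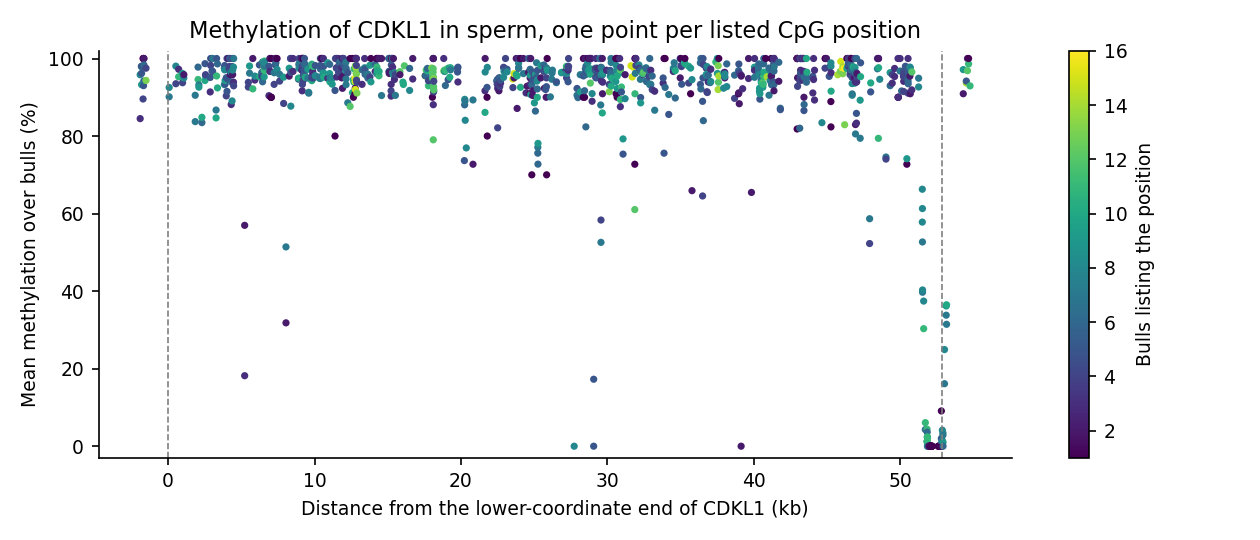
Mean methylation over bulls (%) of each of the 985 listed CpG positions, against the distance in kb from the lower-coordinate end of CDKL1, with the colour giving the number of bulls that list the position and the dashed lines the ends of the gene. Points lie near the top along the gene and fall to 0 in 1 stretch at the higher-coordinate end, with a few isolated low points between.

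The unmethylated stretch was defined from these values as the longest run of neighbouring listed positions whose mean over bulls was at most 10%, so its low level is a description. It held 49 positions in 1211 bp, chr10:43328567-43329777, of which 1108 bp lay inside the gene and 103 bp beyond its end. The 49 position means ran from 0 to 9.09%, and 170 of 210 values (81.0%) were exactly 0. The highest single value was 27.3%. In the 15 bulls that list a position there, the mean level ranged from 0 in H07 over a median of 1.60% in H08 to 3.73% in H04, with an SD between bulls of 0.816 percentage points. H01, L03 and L08 list none. Of the bulls with listed coverage, H02, H03, L01 and L02 list core positions. Summed over its 16 core positions, L01 had 3 methylated of 205 read counts, or 1.46% (exact 95% interval 0.303% to 4.22%). H02 had 2 of 100 over 9 positions, or 2.00% (0.243% to 7.04%). A read that covers several positions is counted at each of them. These intervals take the counts as independent and can be too narrow. In this stretch the listed positions stood at 40.5 per kb, against 16.7 per kb in the rest of the region. A core position was listed by a median of 4 bulls and a position outside the stretch and its shoulders by 5. A gap of 418 bp, from 43329033 to 43329451, holds no listed position, and 22 of the 49 positions were listed in a single bull, 21 of them at 0.

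Methylation rose on both sides of the stretch, on the inner side within a short distance. On the inner side, 8 positions in 95 bp (chr10:43328360-43328454) had intermediate means of 30.3% to 66.3%, and the bull means over them ran from 20% in H04 over a median of 46.7% in H05 to 90% in L02, each of these extremes resting on 1 position. Another 251 bp towards the gene body, the position at 43328109 was at 94.9% in 7 bulls. On the outer side, 6 positions in 142 bp (chr10:43329876-43330017) had means of 16.1% to 36.5%, with bull means from 17.8% in L04 over a median of 29.98% to 50% in H02. The next listed position, 1141 bp further out at 43331158, was at 97.1% in 9 bulls. No position is listed between, so where the level rose on that side was not seen. No value in either shoulder was 0, whereas 81.0% of the values between them were. The SD between bulls was 15.3 points on the inner and 9.69 points on the outer side. The bull means rest on different positions and often on 1 or 2 of them, and the exact 95% intervals of L02 (55.5% to 99.7%) and H01 (12.2% to 73.8%) on the inner side overlap, so a difference between bulls was not shown.

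**Figure D2:**
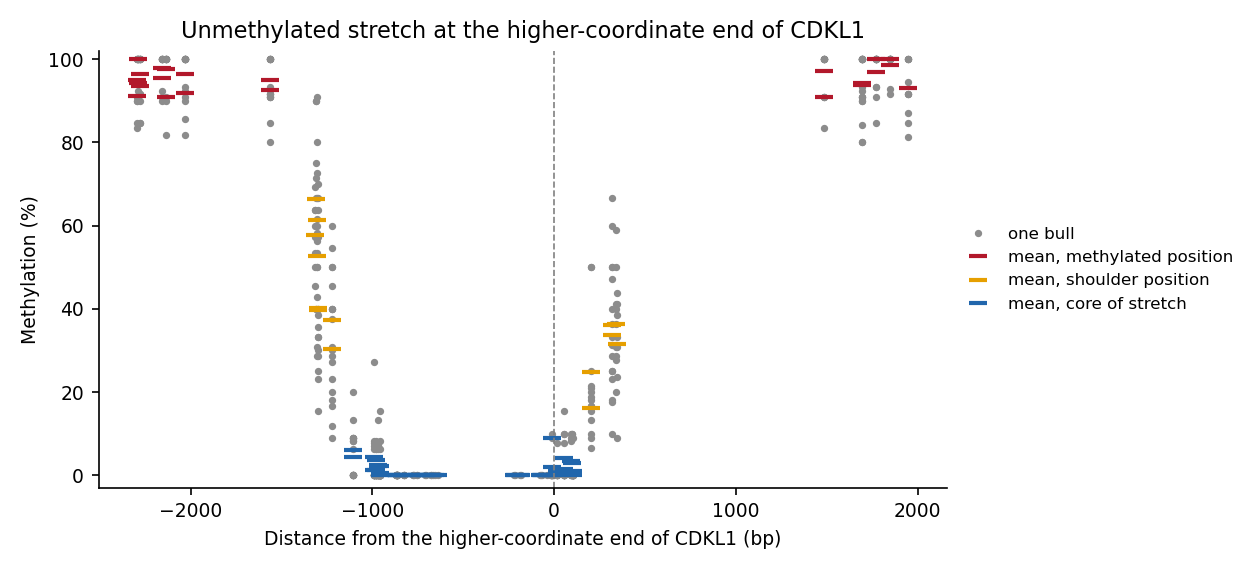
Methylation (%) at listed positions against the distance in bp from the higher-coordinate end of CDKL1 (dashed line), with grey points for single bulls and coloured bars for the mean over bulls. Means in the core of the stretch are at most 9.09%, the shoulder positions lie between 16.1% and 66.3%, and the positions beyond them return to above 90%.

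Outside the stretch and its shoulders the bulls were alike. The mean over the remaining 922 positions ranged from 91.8% in H09 over a median of 94.5% to 96.1% in L03, with an SD between bulls of 0.989 points. The SD of the mean over all listed positions was 3.22 points. The share of a bull's positions that fell in the tile of the stretch was 15.1% in H09, whose mean was 81.3%, and 10.5% in L07, whose mean was 86.4%, against 2.11% in L03 and 0 in L08, whose means were 94.6% and 94.5%.

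In 29 tiles of 2000 bp that cover the region, the median over bulls was at least 90% in 26 tiles and under 50% in 1. Over the 343256 tiles of the genome with a position in all 18 bulls, the tile medians had a median of 93.6%, and 6.80% were under 50%. The tile of CDKL1 under 50%, chr10:43328001-43330000, holds the stretch and 63 listed positions, the largest number of any tile of the region. Its level ranged from 5.43% in H04 over a median of 19.4% to 45.2% in L03, with an SD of 9.33 points, which was the largest SD of the 29 tiles. The bulls list different parts of this tile. The 20 positions of H04 held 18 in the core, whereas the 3 positions of L03 held 2 in the outer shoulder and 1 methylated position, and the only position of H01, at 40%, lay in the inner shoulder. The order of the tile means was not that of the share of core positions throughout, since H07, with 4 of 5 positions in the core, was at 20% and L06, with 8 of 14, at 16.5%. The medians of the other 28 tiles lay between 85.0% and 97.6%. The highest was that of chr10:43290001-43292000 (starting 13154 bp from the gene's lower end), where bulls ranged from 80% to 100%. The tile at the lower-coordinate end of the gene, chr10:43276001-43278000, held 10 positions and was methylated, from 80% in H09, which lists 1 position, over a median of 95.3% to 100% among the 16 bulls that list it. Thus the lower end showed no counterpart of the stretch among the positions listed there.

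The most even tile was chr10:43286001-43288000, with 62 listed positions, a range from 93.0% in L07 over a median of 96.4% to 99.0% in H07 and an SD of 1.53 points. The second tile that the study's supplementary list gives for CDKL1, beside the tile of the stretch, was chr10:43310001-43312000. It ranged from 75.0% in H02 over a median of 95.5% to 100% in H09, L01, L03 and L07, with 22 listed positions and an SD of 7.24 points. Both tiles were chosen by the study on these bulls and are not independent evidence. In the 16 tiles with a position in all 18 bulls, the SD between bulls had a median of 3.91 points (range 1.53 to 8.01), against a median of 4.52 points over the 343256 such tiles of the genome. It was under that genome median in 11 of the 16. The tile of the stretch is not among the 16.

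**Figure D3:**
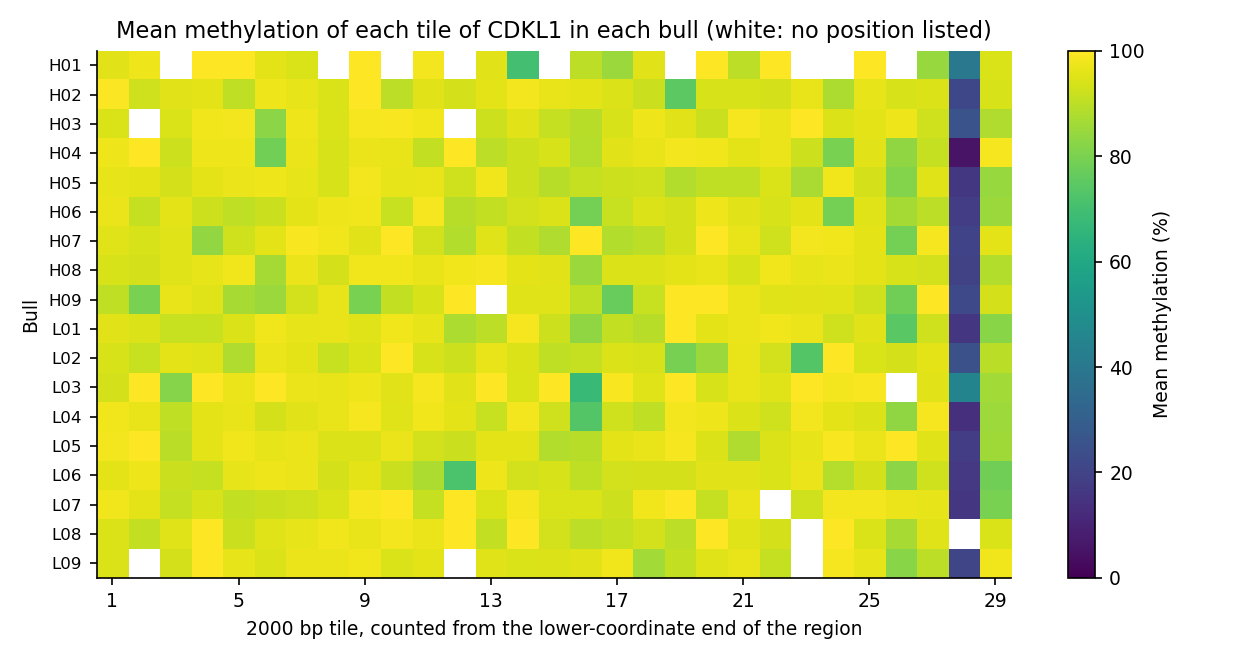
Mean methylation (%) of each of the 29 tiles of CDKL1 (columns, from the lower-coordinate end) in each of the 18 bulls (rows), with white where a bull lists no position. One column, tile 28 with the stretch, is dark in the 17 bulls that list a position there, from 5.43% to 45.2%, and the others are light.

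Single positions inside the methylated part departed from it in particular bulls. Of 652 positions outside the stretch and shoulders that were listed in at least 4 bulls, 545 (83.6%) were at 80% or more in every bull and 26 (3.99%) had a value under 50% in at least 1 bull. At 2 of them all bulls were at 0. These were 43304582, at 0 in 8 bulls (H03, H05, H06, H08, L01, L04, L05 and L06), and 43305914, at 0 in 5 bulls (H03, H04, H08, L03 and L05). The position next to the latter on the other strand, 43305915, was at 0 in H08, L01 and L04, at 36.4% in L02 and at 50% in H06. These positions were chosen after their values were seen. A base that reads as thymine by a sequence difference also counts as unmethylated, and this was not tested here.

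Among the 56 positions listed in at least 12 bulls, 47 were at 80% or more in every bull, and the median range between the lowest and the highest bull was 15.4 points. The 5 with the largest range were chosen for that range, which is therefore a description. At 43294958, L06 was at 0 and H04 at 6.67%, H07 at 66.7% and L07 at 83.3%, while L04 was at 91.7% and the other 7 bulls (H01, H03, H08, L01, L02, L05 and L09) at 100%. Low, intermediate and full percents were thus seen at 1 position in a methylated neighbourhood. A sequence difference that reads as thymine also lowers the percent, and genotypes were not analysed, so this was not tested. At 43308722 the values were spread over the whole scale, from 0 in L01 and 25%, 30%, 50% and 50% in H07, L09, H05 and H08 to 91.7% in H02, 92.3% in H04 and 100% in L05. The 0 of L01 rests on 12 reads (exact 95% interval 0 to 26.5%) and the 91.7% of H02 on 12 reads (61.5% to 99.8%). At 43314414, 12 of 14 bulls were between 90% and 100%, and H02 was at 50% (6 of 12 reads, 21.1% to 78.9%) and H01 at 70.0%. At 43323057 the 13 bulls lay between 63.6% in L06 and 100% in L05. At 43300476, 14 of 15 bulls were at 91.7% or more, and H01 was at 70.0% on 10 reads (34.8% to 93.3%), an interval that overlaps those of the other bulls with coverage.

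The 2 strands of the same CpG had similar values. In 964 cases a bull lists both, and the absolute difference had a median of 6.25 and a mean of 6.22 points. It exceeded 20 points in 39 cases (4.05%). With 10 reads, 1 read is worth 10 points, so most of these differences were smaller than 1 read at that depth. In the core of the stretch the mean difference was 2.94 points over 47 cases, and outside the stretch it was 5.96 points over 878.

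CDKL1 was set beside the stretches of the same length, 56828 bp, before and after it. Before it (chr10:43218019-43274846), bulls ranged from 64.8% over a median of 78.8% to 88.8%, and 13.4% of 889 positions had a mean of at most 10%. After it (chr10:43331675-43388502), bulls ranged from 86.3% over a median of 91.5% to 94.4%, and none of 714 positions had a mean of at most 10%. The median of CDKL1, 90.2%, was thus near that of the stretch after it and above that of the stretch before it, with 5.28% of its positions at or under 10%. These are descriptions of neighbouring DNA of the same bulls and were not tested.

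Among the 22 fine-mapped genes of the study with a position in all 18 bulls, of 25 in its list, CDKL1 had the mean of rank 7 (89.9% ± 3.22, SD, n = 18), and its share of positions at or under 10% also had rank 7 from the lowest. The genes whose bull means, centred on each gene's median, lay nearest to those of CDKL1 over the 18 bulls were MYH10 (mean absolute difference 2.14 points), which encodes a non-muscle myosin heavy chain, WWP2 (2.30 points), which encodes a ubiquitin ligase, and MROH1 (2.41 points). Their means were 92.1%, 91.6% and 92.7%. Their SDs between bulls were 1.05, 1.09 and 1.93 points, against 3.22 points in CDKL1, and a gene that hardly varies between bulls also has a small distance by this measure, so the distances do not show that these genes vary together with CDKL1.

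The comparisons asked whether methylation of CDKL1 differed between bulls of the high and the low group of each trait. Over all listed positions, the groups overlapped in GL, SCE, CCR and SCR and did not overlap in BDE. Of the single tiles tested in the genome, 10.1% did not overlap in BDE. In GL, the high bulls H03, H09, L03 and L05 were at 90.8%, 81.3%, 94.6% and 90.2%, and the low bulls H02, H05, L01 and L07 at 91.3%, 87.0%, 89.5% and 86.4%. The means were 89.2% ± 5.62 (SD, n = 4) and 88.6% ± 2.26 (SD, n = 4), a difference of 0.684 points that is smaller than either SD. Without H09 it was 3.32 points, and without L03 the low bulls had the higher mean by 1.10 points. Without the tile of the stretch it was 0.111 points. At the 528 positions listed in both groups, each counted once, the difference was -0.00436 points, with a median of 0.

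In BDE, the high bulls H02, L03 and L08 were at 91.3%, 94.6% and 94.5%, and the low bulls H05, H09 and L02 at 87.0%, 81.3% and 90.2%. The means were 93.5% ± 1.88 (SD, n = 3) and 86.2% ± 4.48 (SD, n = 3), and every high bull was above every low bull, by 7.32 points on average. The share of listed positions in the tile of the stretch was 4.39%, 2.11% and 0 in the high bulls and 7.97%, 15.1% and 4.37% in the low bulls, so the groups overlapped in it through H02 and L02. Without that tile the means were 94.9% ± 0.657 and 92.7% ± 0.743, still not overlapping, and the difference was 2.19 points. At the 309 positions listed in both groups it was 1.68 points with a median of 0, and it was 1.65 points when each tile counted equally. These differences between means over the gene were not tested. Over the tested tiles, the median difference, high minus low, in BDE was 1.36 points in CDKL1 and 0.557 points in the genome. In the same order it was 0.649 and 0.525 points in GL, 1.07 and -0.335 in SCE, 0.105 and -0.968 in CCR, and 1.31 and -0.00735 in SCR. The median of CDKL1 was thus the higher in each comparison, not in BDE alone.

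In SCE, the high bulls H03, H07 and L02 were at 90.8%, 91.8% and 90.2% and the low bulls H01, H06 and L09 at 94.1%, 88.8% and 89.0%, means of 90.9% ± 0.828 and 90.6% ± 3.00 (SD, n = 3 each). In CCR, the high bulls H08, H09 and L06 were at 91.6%, 81.3% and 90.7% and the low bulls H06, L08 and L09 at 88.8%, 94.5% and 89.0%, means of 87.9% ± 5.70 and 90.8% ± 3.25 (SD, n = 3 each). In SCR, the high bulls H01, H02 and H03 were at 94.1%, 91.3% and 90.8% and the low bulls L01, L02 and L03 at 89.5%, 90.2% and 94.6%, means of 92.1% ± 1.76 and 91.4% ± 2.77 (SD, n = 3 each). The differences, 0.307, -2.90 and 0.666 points, were smaller than the larger SD in each comparison. At positions listed in both groups they were -0.364, 0.141 and 0.327 points. Without the tile of the stretch they were -0.780, -1.05 and 0.566 points, so the sign turned in SCE. Without H09, the CCR difference was 0.376 points, so its sign rested on that bull.

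**Figure D4:**
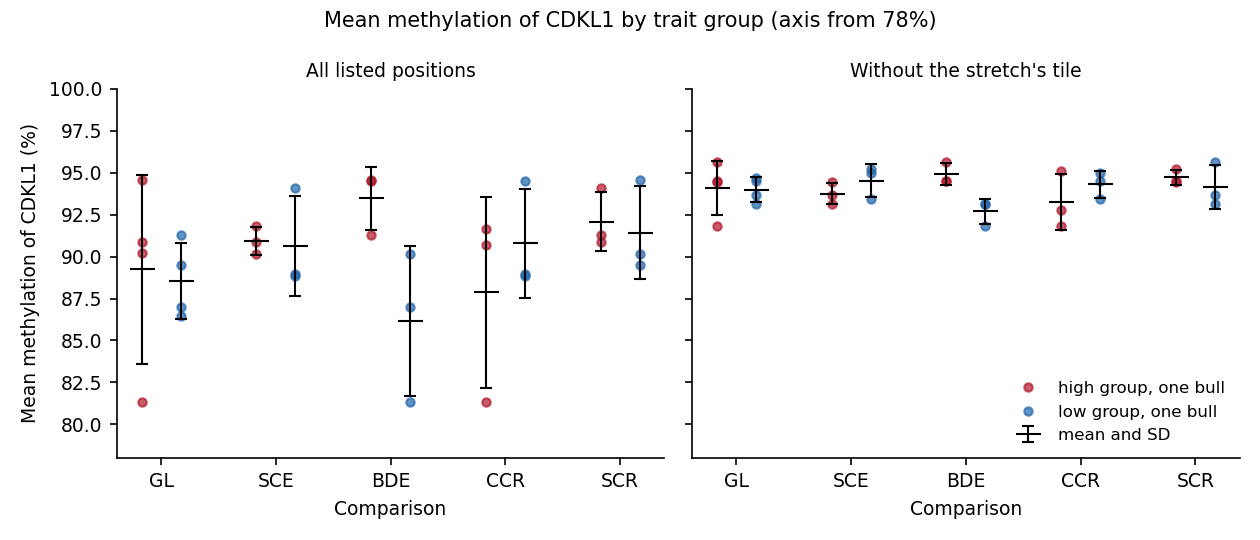
Mean methylation of CDKL1 (%, axis from 78%) of each bull by trait and group, over all listed positions (left) and without the tile of the stretch (right), with bars for the group mean and SD. The bulls spread from 81.3% to 94.6% on the left and from 91.9% to 95.7% on the right, and only in BDE do the 2 groups not overlap, in both panels. In the genome, the BDE groups did not overlap in 10.1% of the tested tiles.

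Tile by tile, methylated and unmethylated reads were compared by a logistic regression over all tiles of the genome in which every bull of the comparison lists a position. A tile was called when q, the p-value adjusted over all these tiles, was under 0.01 and the groups differed by over 5 points. Each position counted as 10 reads per bull in GL, SCE, BDE and CCR, which is the fewest that a listed position can have, and listed reads were used in SCR. On these terms no tested tile of CDKL1 was called in any of the 5 comparisons. The tile of the stretch was not tested in BDE and CCR, since L08 lists no position in it. Also not tested were chr10:43310001-43312000 in SCE and SCR, and chr10:43276001-43278000 in all comparisons but BDE. The counts moved with the settings. With 13 reads per position, 3 of 24 tiles were called in GL (12.2% in the genome), 1 of 19 in SCE (10.1%), 1 of 25 in BDE (11.6%) and 1 of 24 in CCR (15.2%). With tiles shifted by 1000 bp, 2 of 25 were called in GL (8.81%), 1 of 16 in SCE (6.22%), 2 of 25 in BDE (7.49%), 0 of 23 in CCR (11%) and 1 of 17 in SCR (8.75%). Leaving out 1 bull gave up to 3 of 25 tiles in GL (without L07, 8.87% in the genome). In BDE it gave up to 1 of 25 (without H02, 7.55%). In CCR it gave up to 2 of 25 (without H09, 11.1%) and in SCR up to 2 of 20 (without H03, 8.87%). At least 3 positions per tile gave 1 of 13 in CCR (11.4%). The replicate block (the number in the bulls' names) gave 1 of 19 in SCR, beside 40655 of 549229 tiles of the genome. In GL, 0 of 24 tested tiles were called, against 8.75% of the tiles of the genome. The counts were 0 of 19 in SCE (6.18% in the genome), 0 of 25 in BDE (7.57%), 0 of 24 in CCR (11.1%) and 0 of 19 in SCR (8.68%). At an unadjusted p under 0.05 with a difference over 5 points, the logistic regression passed 3 tiles in GL (16.5% in the genome), 2 in SCE (17.9%), 1 in BDE (18.6%), 1 in CCR (20.3%) and 2 in SCR (19.1%). On the same terms the F test with overdispersion passed 1 tile of CDKL1 in BDE (2.81% in the genome) and none in GL (3.47%), SCE (2.46%), CCR (2.89%) and SCR (2.72%). limma passed 1 tile in GL (3.59%) and none in SCE (3.3%), BDE (3.84%), CCR (3.61%) and SCR (3.4%). After adjustment, the F test and limma called no tile anywhere in the genome. The bulls of the groups did not overlap in 0 of 24 tiles in GL (3.3% in the genome), 1 of 19 in SCE (9.26%), 2 of 25 in BDE (10.1%), 2 of 24 in CCR (9.94%) and 1 of 19 in SCR (9.12%). Over the tested tiles of CDKL1 the median absolute difference was 1.73 points in GL, 1.47 in SCE, 1.91 in BDE, 1.46 in CCR and 1.94 in SCR. Over all tested tiles it was 1.95, 2.45, 2.42, 2.34 and 2.41 points.

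In GL, the tiles of the study's list lay close to the threshold, and their differences changed when only positions listed in both groups were used. In chr10:43310001-43312000, H03, H09, L03 and L05 were at 95.5%, 100%, 100% and 98.7% on 2, 1, 2 and 6 positions. H02, H05, L01 and L07 were at 75.0%, 88.5%, 100% and 100% on 4, 13, 6 and 4 positions. The low bulls H02 and H05 were below every other bull of the comparison, and L01 and L07 were not. The difference over the summed reads was 7.73 points (logistic regression, q = 0.0150), and at the 6 positions listed in both groups it was 0.767 points (Cochran-Mantel-Haenszel test, q = 0.789). In the tile of the stretch, chr10:43328001-43330000, H03, H09, L03 and L05 were at 25.7%, 22.2%, 45.2% and 18.3%, and H02, H05, L01 and L07 at 21.6%, 16.1%, 15.8% and 15.9%. The difference was 5.76 points (q = 0.0209). At the 34 positions listed in both groups it was -1.97 points (q = 0.627), the opposite sign. In the core of the stretch, H03, H09 and L05 had 2.12%, 1.03% and 1.41%, and H02, H05, L01 and L07 had 1.71%, 1.21%, 1.46% and 2.02%, so the groups overlapped. L03, which lists no core position, had the highest tile mean.

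The third GL tile past 5 points was chr10:43284001-43286000, named after its values were seen, where the difference was -5.27 points (q = 0.0232), the high bulls being lower, and -6.42 points at the 16 matched positions (q = 0.0160). H03 and H09 were at 82.5% and 85.1%, L03 and L05 at 100% and 96.2%, and H02, H05, L01 and L07 at 97.6%, 97.5%, 98.0% and 91.8%. The groups overlapped through L03 and L05. Counting 13 in place of 10 reads per position brought these 3 of 24 tiles under the q threshold, beside 12.2% of the tiles of the genome, so their calls in GL changed with the number of reads assumed per position. Either number was given to all 8 bulls, also to the 4 (H02, H03, L01 and L03) whose coverage is listed.

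In CCR, the tile chr10:43294001-43296000, named after its values were seen, differed by -5.002 points (logistic regression, q = 0.0101) and by -5.68 points at 21 matched positions (Cochran-Mantel-Haenszel test, q = 0.0264). The high bulls H08, H09 and L06 were at 96.7%, 93.8% and 87.7% and the low bulls H06, L08 and L09 at 98.8%, 97.2% and 95.9%, so the groups overlapped through H08. It was called with 13 reads per position, with at least 3 positions per tile and without H08, H09 or L09. Among tiles past 5 points outside GL, the next nearest to the q threshold were chr10:43304001-43306000 in SCR (6.86 points, q = 0.0166), chr10:43302001-43304000 in BDE (6.73 points, q = 0.0180) and chr10:43312001-43314000 in SCE (-6.46 points, q = 0.0359), by the same logistic regression. In CCR, chr10:43288001-43290000 had q = 0.0276 by that regression, at -3.12 points. The groups did not overlap in it, as in 9.94% of the tiles tested in CCR.

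At matched positions no tile of CDKL1 was called in any comparison by the Cochran-Mantel-Haenszel test, out of 29 tiles in each, against 1.79% of the tiles of the genome in GL, 1.1% in SCE, 1.18% in BDE, 3.26% in CCR and 1.01% in SCR. Some tiles, named after their values were seen, differed by more there. In BDE, chr10:43312001-43314000 differed by 3.86 points over all listed positions and by 10.2 points at 13 matched positions (q = 0.0329). Among tiles not tested over all listed positions, chr10:43310001-43312000 in SCR differed by -15.4 points at 4 matched positions. In BDE, chr10:43318001-43320000 differed by 14.2 points at 5. When tiles were shifted by 1000 bp, the tile chr10:43327001-43329000, which crosses the edge of the stretch, differed by 31.4 points in SCE, 37.1 points in BDE and 11.9 points in SCR, the high group being higher, and by -8.85 points in GL, and it was called in these 4 comparisons. The fixed tiles over the same DNA, chr10:43326001-43328000 and chr10:43328001-43330000, differed at matched positions by 5.83 and 1.12 points in SCE (on 5 and 14 positions), -1.23 and 4.20 points in BDE (9 and 15), -2.43 and 2.46 points in SCR (12 and 20) and 0.118 and -1.97 points in GL (16 and 34), and none of these was called. In BDE the high bulls L03 and L08 list no core position, whereas all 3 low bulls do. The part of the listed positions in the differences of the shifted tile was not tested. Of all shifted tiles tested in the genome, 6.22% were called in SCE, 7.49% in BDE, 8.75% in SCR and 8.81% in GL.

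**Figure D5:**
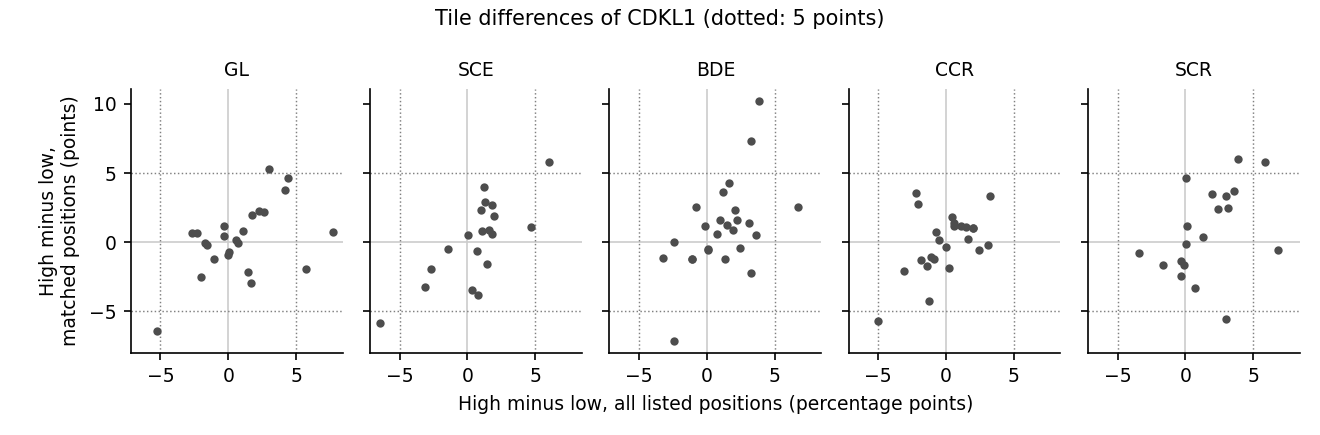
Difference between the high and the low group (percentage points) of each tested tile of CDKL1 in the 5 comparisons, over all listed positions (horizontal axis) and over positions listed in both groups (vertical axis), with dotted lines at 5 points. Few of the tiles shown pass 5 points on either axis, and in GL the tiles at 7.73 and 5.76 points on the horizontal axis are at 0.767 and -1.97 points on the vertical. Tiles not tested over all listed positions are not shown, among them tiles at -15.4 points in SCR and 14.2 points in BDE at matched positions.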

How the data were processed

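Reads were trimmed and mapped to UMD 3.1 by the authors, whose processing notes name FastQC 0.11.2, Trim Galore 0.4.0, Bowtie2 and Bismark 0.14.5. The authors deposited, per bull and CpG position with at least 10 reads, the percent of methylated reads, and for 6 bulls also the deposited read counts. A base that reads as thymine counts as unmethylated, whether by bisulfite or by a sequence difference, and genotypes were not analysed here. The design had assumed read counts for every bull. Therefore each position counted as 10 reads in GL, SCE, BDE and CCR, and listed counts were used in SCR. Positions were summed in 2000 bp tiles. The q values took the share of unchanged tiles from the median slope of the p-value distribution over 10 segments from 0.1 to 1. Matched positions are those that both groups list in some bull, with each position a stratum of 10 reads per bull. The F test used the overdispersion of McCullagh and Nelder, not under 1, and limma 3.58.1 (R 4.3.3) a log2 ratio derived from the deposited percents, with 1 read added to the methylated and to the unmethylated reads of a tile. In SCR the listed reads entered both. Both used Benjamini-Hochberg adjustment. Intervals are Clopper-Pearson and cover counting error only, and those summed over positions take the counts of each position as independent. The logistic regression and the Cochran-Mantel-Haenszel test take reads as independent, also where 1 read covers several positions. Their p-values do not cover the spread between bulls. In GL, SCE, BDE and CCR, and in SCR at matched positions and in the alternative of 10 reads, the reads per position were assumed. Those p-values do not measure the counting error of these libraries. The F test and limma use the spread between these bulls' libraries. Nothing in the labels says how ejaculates were sampled. The study states that an artificial insemination company collected the semen by a standardized procedure. The tests were also run on simulated tiles in which all bulls of a group had the same methylation level. These tiles held no spread between bulls, so they do not show how the tests behave with it. Python 3.11.15, NumPy 2.4.6, SciPy 1.17.1 and matplotlib 3.10.9 were used.

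The gene, its comparisons and the rule for named items were chosen with earlier results of these data known. Named were called tiles, the 2 tiles of the study's list, the tile at each end, the tiles of extreme median and SD, the 5 positions of largest range among those in at least 12 bulls, and the 3 fine-mapped genes nearest in bull means. Promoters, exons and sequences of the region were not used here.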

Additional observations from a re-analysis of the deposited data

Results flagged for a closer look

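Of 13 groups of 4 bulls examined in GL (the mean of CDKL1 with and without the tile of the stretch, and the named tiles), 3 held a bull whose gap to the nearest bull exceeded, relative to the group's range, Dixon's 95% critical value. About 1 in 20 such groups is picked by chance. In chr10:43286001-43288000, the most even tile, H09 was at 93.0% among the high bulls, whose median was 97.0%, and L07 at 93.0% among the low bulls, whose median was 96.2%. H09 and L07 list 5 and 4 positions there, against 10 to 21 in the other high and 17 to 34 in the other low bulls. This tile was named for its small SD, so a small gap can pass the value. In the tile of the stretch, chr10:43328001-43330000, H02 was at 21.6% among the low bulls, whose median was 15.99%.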

How the results depend on the processing

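With 13 reads per position, 3 of 24 tiles of CDKL1 were called in GL (12.2% of tiles in the genome), 1 of 19 in SCE (10.1%), 1 of 25 in BDE (11.6%) and 1 of 24 in CCR (15.2%). With tiles shifted by 1000 bp, 2 of 25 were called in GL (8.81%), 1 of 16 in SCE (6.22%), 2 of 25 in BDE (7.49%) and 1 of 17 in SCR (8.75%). With at least 3 positions per tile, 1 of 13 was called in CCR (11.4%). With each bull left out in turn, the count ranged from 0 to 3 in GL, from 0 to 1 in BDE, from 0 to 2 in CCR and from 0 to 2 in SCR, and it was 0 throughout in SCE. In GL it was 3 of 25 without L07 (8.87% in the genome), 2 of 24 without L05 (7.84%), 1 of 24 without H02 (8.93%) and 1 of 24 without L01 (8.92%). In BDE it was 1 of 25 without H02 (7.55%). In CCR it was 2 of 25 without H09 (11.1%), 1 of 24 without H08 (16.9%) and 1 of 26 without L09 (11.7%). In SCR it was 2 of 20 without H03 (8.87%) and 1 of 19 without L02 (8.77%). The other alternatives to these counts (difference over 10 points, Benjamini-Hochberg, F test, limma, matched positions, and in SCR 10 reads) gave 0. At a coverage of at least 15 reads in SCR, no tile of CDKL1 was left to test, so that 0 says nothing. With the replicate block in SCR, 1 of 19 tiles, chr10:43304001-43306000, was called at 6.86 points, beside 40655 of 549229 tiles of the genome. The block was the number in the bulls' names, which the labels do not call a pairing. The correlations of the deviations of same-numbered bulls were -0.0201, 0.0171 and 0.00223. They cannot show whether these bulls share anything besides the number.

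The BDE difference in mean was 5.21 points at the 3 positions listed in every bull, and it fell from 7.32 to 1.68 points at positions listed in both groups, 1.65 points with tiles weighted equally and, in an alternative chosen after seeing the data, 2.19 points without the tile of the stretch. The SCR difference was -21.0 points at the 1 position listed in every bull, 43314414. The ranges with each bull left out were -1.10 to 3.32 points in GL, -0.593 to 2.04 in SCE, 4.90 to 9.32 in BDE, -4.78 to 0.376 in CCR and -0.341 to 2.25 in SCR. Over the gene without its flanks the differences were -0.0373 points in GL, 1.86 in SCE, 7.01 in BDE, -2.99 in CCR and -0.0543 in SCR. The causes were not tested. The spread between bulls was 3.47 points in the 4 tiles with at least 3 positions in every bull. No position is listed in all 18 bulls, so that alternative gave no value. Depth limits single positions, since 0 methylated of 10 reads still allows 30% methylation when a count of 0 is taken to allow 3 reads, and a position was listed in a median of 5 bulls.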

Other observations

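The 2 bulls without a group, H04 and L04, list 338 and 410 positions of CDKL1. Their means were 88.7% and 87.2% over all positions and 93.9% and 94.1% without the tile of the stretch. In the core of the stretch they were at 3.73% and 2.44%. H04 had the lowest value of the 17 bulls that list the tile of the stretch, 5.43%, and the lowest of the 18 bulls in chr10:43284001-43286000, 78.6%. At 43284897, which lies in the latter tile, H04 and H06 were at 0, H08 at 45.5%, L07 at 50%, L04 at 72.7%, H05 at 91.7% and L01 at 100%. At the neighbouring positions 43320277 and 43320287, H04 was at 40% and 45.5%, and the other 4 and 5 bulls that list them were at 90% or more.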
